A study of Mus musculus with 23 samples.

Results

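The 5 cells described here are single neurons of the mouse arcuate hypothalamus in which each of 4 arcuate peptide genes stayed below a set threshold. They were chosen on measured values: Pomc below 1000, Kiss1 below 500, Npy below 1000 and Sst below 500 FPKM. Fragments per kilobase of gene and 1000000 mapped fragments (FPKM) is a level per length, so it can be set side by side between genes. Of 23 cells in the series, 5 met all 4 thresholds, and the other 18 passed at least 1 of them. The 5 cells are called below-threshold cells and carry the names JCb5.2-1, JCb5.2-3, JCb5.2-7, JCb6-01 and JCb6-03.

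All 23 cells came from vGLUT2-IRES-Cre mice that also carried loxSTOPlox-L10-GFP, a green fluorescent ribosomal protein that Cre switches on. The donors were 2 male mice of mixed background, given as young adult, and no cell is tied to either of them. Green cells were picked by hand after papain digestion, and their polyadenylated RNA was amplified cell by cell with SmartSeq2. VGLUT2 loads glutamate into synaptic vesicles, and Cre driven from its gene also marks any cell that used the gene earlier in life, so the green label does not show that a cell expressed it when it was picked. The cell names have 2 prefixes, whose meaning the labels do not give: JCb5.2 covers 3 below-threshold cells and 12 others, and JCb6 covers 2 below-threshold cells and 6 others.

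The arcuate nucleus senses hormones of energy balance and reproduction. Its best known neurons are named after the peptide they release: Pomc neurons, which make the melanocortin α-MSH and lower food intake, Npy and Agrp neurons, which raise it, Kiss1 neurons, which drive gonadotropin release, and Sst neurons. Glutamatergic arcuate neurons defined by VGLUT2 rather than by one of these peptides also project to the paraventricular hypothalamus, and the series title concerns such an excitatory pathway and its regulation by α-MSH.

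Each sample is 1 cell, so there are no replicates of a group, and the split was made on the same values. Every difference below is therefore a description with no test. To keep differences in peptide background between the prefixes apart, below-threshold cells were set only against other cells of their own prefix, on log2(FPKM + 1), and the 2 within-prefix differences of means were averaged. A gene was called higher or lower where the difference was at least 1 in the same direction in both prefixes. The table gave 11611 genes for this comparison, each at 1 FPKM or more in at least 3 cells, with a locus of 300 bp or more and without the 4 genes of the rule.

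Depth and gene number of the 5 cells overlapped those of the others, with higher medians of depth. Between 6509 and 7632 genes reached 1 FPKM in the below-threshold cells, against 4054 to 8042 in the other cells. Depth relative to the shallowest cell of the series, read from the steps between low values, was 2.03 to 3.25 in the below-threshold cells, against 1.00 to 4.17 in the others, with medians of 3.12 and 2.22. Genes at 10 FPKM numbered 4010 to 4589 in the below-threshold cells and 1948 to 4481 in the others, so that JCb6-03 with 4589 and JCb5.2-1 with 4512 were above each of the other 18 cells. JCb6-02, one of the other cells, stood apart with the 4054 genes. Summed FPKM over 16 neuronal marker genes was 3149 to 4849 in the below-threshold cells and 2701 to 6735 in the others, and all 16 were present at 1 FPKM in at least 1 below-threshold cell.

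The name "cells without a dominant arcuate peptide" held for some of the 5 cells only. JCb5.2-3 had 4233 FPKM of Cartpt, the gene of the appetite-suppressing peptide CART, and only 1 gene of that cell with a locus of 300 bp or more was higher. It also had 1031 FPKM of Pdyn, which encodes dynorphin, and 922 FPKM of Pomc. JCb6-01 had 5 peptide genes at 500 FPKM or more. JCb5.2-1 and JCb5.2-7 had 0 such genes. Leaving Oxt and Avp aside, the leading peptide gene was Pomc in JCb5.2-7, where it ranked 197 among all genes of the cell, and Cartpt in the remaining 4, where it ranked 415 in JCb5.2-1, 2 in JCb5.2-3, 56 in JCb6-01 and 162 in JCb6-03. In the other 18 cells the leading peptide ranked between 1 and 62. The 5 cells are therefore described by their thresholds.

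The genes of the rule are given as a description, since they chose the cells. Pomc was 96.7 FPKM in JCb5.2-1, 922 in JCb5.2-3, 412 in JCb5.2-7, 599 in JCb6-01 and 54.2 in JCb6-03. The nearest cell past the Pomc threshold was JCb6-07 at 1488 FPKM. The gap between inside and outside was thus narrow for Pomc and wide for the other 3 genes. Kiss1 was at most 13.2 FPKM in the below-threshold cells, and the lowest value past its threshold was 895 FPKM. Npy was at most 6.25 FPKM, against 2539 FPKM in the nearest cell past its threshold. Sst was at most 41.2 FPKM, and JCb5.2-2, with 903 FPKM, was the nearest cell past that threshold. Together the 4 genes made up 0.0137 to 0.208% of the FPKM of a below-threshold cell, against 0.194 to 6.96% in the other cells.

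**Figure D1:**
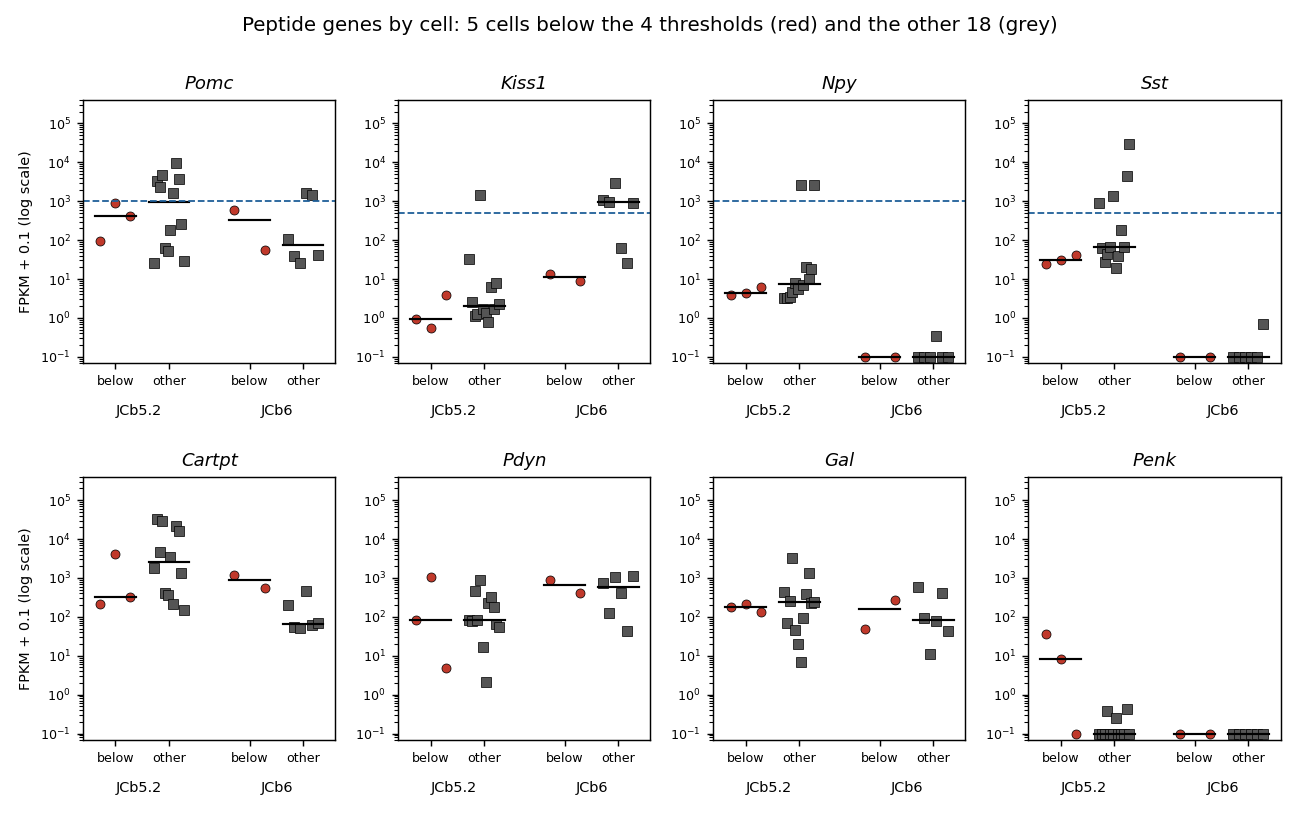
FPKM + 0.1 on a log axis for 8 peptide genes in each cell, by cell-name prefix: red circles are the below-threshold cells, grey squares the other cells, black lines the medians and dashed blue lines the thresholds of the rule. JCb5.2-3 is the red circle at 922 FPKM just under the Pomc line and at 4233 FPKM of Cartpt; both red JCb6 circles lie above every grey JCb6 square for Cartpt.

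The peptides that the rule did not use varied widely among the 5 cells. Cartpt was 220 FPKM in JCb5.2-1, 4233 in JCb5.2-3 and 317 in JCb5.2-7, against 152 to 32793 FPKM with a median of 2634 in the other JCb5.2 cells. In the JCb6 cells the order was the other way: 1219 FPKM in JCb6-01 and 554 in JCb6-03, against 50.3 to 471 FPKM in the other 6 cells. So both JCb6 below-threshold cells lay above every other cell of their prefix, while the JCb5.2 cells overlapped theirs. Pdyn was 81.5, 1031 and 4.82 FPKM in JCb5.2-1, JCb5.2-3 and JCb5.2-7, against 2.03 to 894 FPKM in the other JCb5.2 cells. It was 878 FPKM in JCb6-01 and 421 in JCb6-03, within the 44.0 to 1117 FPKM of the other JCb6 cells. In kisspeptin neurons dynorphin occurs beside neurokinin B. Tac2, the gene of neurokinin B, was 6.73 and 6.23 FPKM in JCb6-01 and JCb6-03, against 9.57 to 1814 FPKM in the other JCb6 cells.

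Gal, the galanin gene, was 1 of 6 listed peptide genes at 1 FPKM or more in all 5 cells. It was 182, 214 and 137 FPKM in JCb5.2-1, JCb5.2-3 and JCb5.2-7, and 49.1 and 277 FPKM in JCb6-01 and JCb6-03. The other cells ranged from 6.88 to 3279 FPKM in JCb5.2 and from 10.9 to 579 FPKM in JCb6, so the groups overlapped throughout. Vgf, a granule protein cut into several peptides, split the 5 cells: it was 286 FPKM in JCb5.2-3 and 543 in JCb6-01, against 5.37 to 16.2 FPKM in the remaining 3. Prok2 was 86.2 FPKM in JCb5.2-3 and 39.5 in JCb5.2-1, and Nmb was 53.1 FPKM in JCb5.2-7 and 35.0 in JCb5.2-1. Penk, the enkephalin gene, was 35.9 FPKM in JCb5.2-1 and 8.33 in JCb5.2-3, and it was listed at 0 in the remaining 3 below-threshold cells. No other cell had more than 0.317 FPKM of it. Cort, which encodes cortistatin, was 7.63 FPKM in JCb5.2-7 and was listed at 0 in all the other 22 cells.

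Of the 55 peptide genes listed, 23 reached 1 FPKM in at least 1 below-threshold cell, against 36 in at least 1 of the more numerous other cells. Only 17 of the 55 could be compared between the groups, and 0 were higher and 0 lower, beside the 5.02% of all genes called higher and 2.05% called lower. Avp and Oxt mark neurosecretory neurons of other hypothalamic nuclei, and Avp followed the cell names and not the groups. Avp was 881 and 654 FPKM in JCb6-01 and JCb6-03, against 571 to 5186 FPKM in the other JCb6 cells, and at most 2.01 FPKM in any JCb5.2 cell. The ratio of Avp to Oxt was 1.8 and 1.83 in these 2 below-threshold JCb6 cells, against 1.55 to 1.91 in the other JCb6 cells. Oxt also reached 1 FPKM in JCb5.2-5, JCb5.2-7 and JCb5.2-10, where the ratio was 0.0653, 0.0629 and 0. Whether these 2 peptides came from the cells themselves was not tested.

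All 5 cells expressed the marker of the labelled population. Slc17a6, the gene of VGLUT2, was 78.7, 51.0 and 51.2 FPKM in JCb5.2-1, JCb5.2-3 and JCb5.2-7, against 0.520 to 67.3 FPKM with a median of 30.4 in the other JCb5.2 cells. It was 31.5 FPKM in JCb6-01 and 139 in JCb6-03, against 1.65 to 117 FPKM with a median of 44.2 in the other JCb6 cells. JCb5.2-1 and JCb6-03 were thus the highest of their prefix, and JCb6-01 was below its prefix's median. Slc17a6 reached 1 FPKM in 5 of 5 below-threshold cells (exact 95% interval 47.8 to 100%, counting error only) and in 17 of 18 others (72.7 to 99.9%). The intervals take each cell as an independent draw. No cell is tied to either of the 2 mice, so the intervals do not measure the spread between mice and do not compare the groups. The average within-prefix difference was 1.51 on the log2 scale, and under a scaling by median ratios between cells it no longer passed 1 in both prefixes.

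GABA genes were mixed among the 5 cells. Gad1, which encodes a GABA-synthesizing enzyme, was 8.46, 0.434 and 2.56 FPKM in JCb5.2-1, JCb5.2-3 and JCb5.2-7, against a median of 43.4 FPKM in the other JCb5.2 cells. In JCb6-01 and JCb6-03 it was 33.5 and 12.6 FPKM, against a median of 1.68 FPKM in the other JCb6 cells. Gad2, the gene of the second such enzyme, was 109 FPKM in JCb5.2-3 and 25.6 in JCb6-01, and below 1 FPKM in the remaining 3. JCb6-01 had both enzymes above 10 FPKM beside Slc17a6, while JCb5.2-7 had neither above 2.56 FPKM. Gad1 or Gad2 reached 10 FPKM in 3 of the 5 cells and in 13 of the other 18. The vesicular GABA transporter gene Slc32a1 stayed at or under 0.0497 FPKM in all 5 cells.

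Receptors for feeding signals and hormones let a neuron read the body's energy and reproductive state. Of 98 receptor genes listed, 57 could be compared, and 4 of these were higher and 0 lower in the below-threshold cells, a share of 7.02% beside 5.02% of all genes. The share is near that of all genes. The median difference of the 57 was -0.11 on the log2 scale, against 0.16 for all genes compared. The 4 were Mc3r, Gpr101, Pgr and Qrfpr, and all 4 also passed under both other scalings. Mc3r encodes 1 of the 2 main melanocortin receptors of the brain and lies on chromosome 2, from 172248492 to 172251114 on the plus strand (mm10). It was 45.2 FPKM in JCb5.2-1 and 30.2 in JCb5.2-3, above the highest other JCb5.2 cell at 17.2 FPKM. It was 0.155 FPKM in JCb5.2-7. In JCb6-01 and JCb6-03 it was 11.5 and 45.3 FPKM, against a median of 0.647 and a highest value of 23.7 FPKM in the other JCb6 cells. Mc4r, the other receptor for α-MSH, was below 0.4 FPKM in all 5 cells, and its highest value of 50 FPKM was in JCb5.2-2.

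Gpr101 encodes a G protein-coupled receptor linked to growth hormone excess in humans. It was 193, 64.6 and 18.4 FPKM in JCb5.2-1, JCb5.2-3 and JCb5.2-7, against 0.515 to 314 FPKM with a median of 29.5 in the other JCb5.2 cells. It was 44.7 FPKM in JCb6-01 and 153 in JCb6-03, above all of the other JCb6 cells, which had 0.185 to 35.1 FPKM. Pgr, the progesterone receptor gene, was 9.74, 33.9 and 2.66 FPKM in the 3 JCb5.2 cells and 40.3 and 10.9 FPKM in the 2 JCb6 cells, against medians of 1.503 and 2.002 FPKM in the others. Qrfpr, the receptor gene of the RF-amide peptide QRFP, was 12.7 FPKM in JCb5.2-1, 19.2 in JCb5.2-3 and 11.1 in JCb6-01, and below 0.12 FPKM in JCb5.2-7 and JCb6-03. The highest other cell had 6.98 FPKM of Qrfpr. The differences were 2.33 for Mc3r, 2.88 for Gpr101, 2.31 for Pgr and 2.02 for Qrfpr on the log2 scale.

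Several receptors set single cells of the 5 apart from the remaining 4. The comparison is within the 5 unless other cells are named. Oxtr, the oxytocin receptor gene, was 7.67 FPKM in JCb5.2-7 and below 0.1 FPKM in the remaining 4, and it reached 1 FPKM in 4 of the other 18 cells, all of the JCb5.2 prefix. Lepr, the leptin receptor gene, was 2.30 FPKM in JCb5.2-1 and at most 0.244 FPKM in the remaining 4. Npy1r, a receptor for NPY, was 19.1 to 39.6 FPKM in 4 of the 5 cells and 1.32 FPKM in JCb5.2-7. Its average difference from the other cells was 1.41 on the log2 scale, but 0.32 within JCb5.2, so it was not called higher. Avpr1a, a vasopressin receptor gene, was 17.3 FPKM in JCb5.2-3 and listed at 0 in all the other 22 cells. Prokr2, Oprk1, Galr2 and Kiss1r, which encode receptors for prokineticins, dynorphin, galanin and kisspeptin, were at 21.03, 13.4, 10.8 and 6.46 FPKM in JCb6-03 and at most 0.0506 FPKM in the remaining 4 below-threshold cells.

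**Figure D2:**
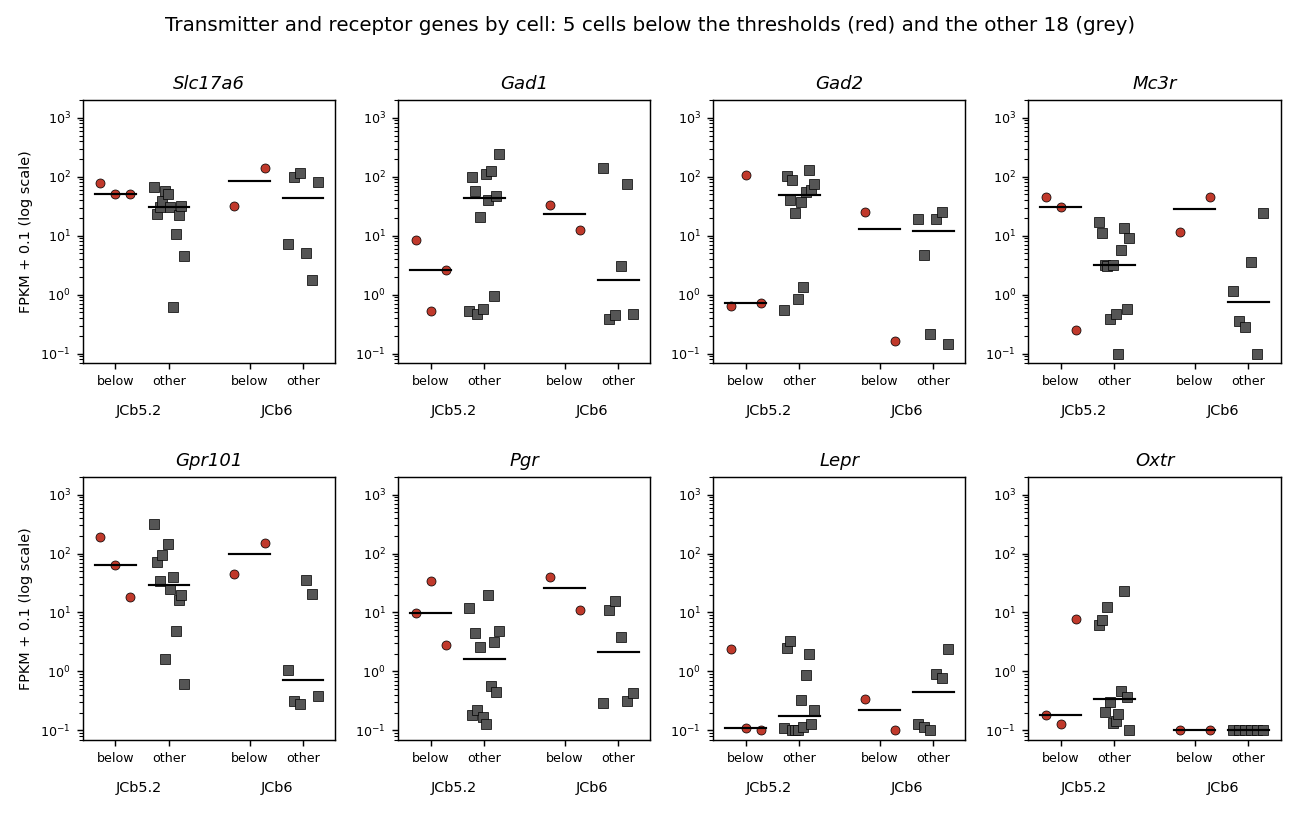
FPKM + 0.1 on a log axis for transmitter and receptor genes in each cell, by cell-name prefix: red circles are the below-threshold cells, grey squares the other cells, black lines the medians. All 5 red circles lie above 31 FPKM for Slc17a6, while JCb5.2-7 is the red circle near 0 for Mc3r and at 7.67 FPKM for Oxtr.

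Transcription factors of the arcuate lineage were present. Nkx2-1, which patterns the ventral hypothalamus, was 30.6 to 76.8 FPKM in the 5 cells, and Tbx3, a factor of arcuate peptide neurons, was 17.4 to 123 FPKM. Of 27 factor genes compared, Isl1 and Six3 were higher (7.41%, near the 5.02% of all genes) and 0 lower (beside 2.05%). Isl1, required for arcuate peptide neuron identity in mice, was 122, 139 and 59.0 FPKM in JCb5.2-1, JCb5.2-3 and JCb5.2-7, against 1.36 to 111 FPKM with a median of 18.97 in the other JCb5.2 cells. It was 21.2 FPKM in JCb6-01 and 52.0 in JCb6-03, against a median of 1.41 and a highest value of 70.6 FPKM in the other JCb6 cells. The difference was 2.53 on the log2 scale. Six3 was 3.11 to 23.8 FPKM in the 5 cells, and it no longer passed under the median-ratio scaling. Prdm12 and Sox2 were 46.8 and 36.3 FPKM in JCb5.2-7 and below 0.5 FPKM in the remaining 4.

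Peptide precursors are cut and packed by granule and processing genes. Of 17 such genes, 14 to 16 reached 1 FPKM in a below-threshold cell, against 13 to 16 in the other cells. Of the 17 compared, Pcsk1 was higher (5.88%, beside 5.02% of all genes) and Pcsk2 lower (5.88%, beside 2.05%), both prohormone convertases. Pcsk1 was 68.7, 8.54 and 45.7 FPKM in the JCb5.2 cells and 58.5 and 37.9 FPKM in the JCb6 cells, against medians of 3.86 and 8.89 FPKM in the others. Pcsk2 was 0.189 FPKM in JCb5.2-1, 0.284 in JCb5.2-3 and 70.7 in JCb5.2-7, against 0.644 to 96.5 FPKM in the other JCb5.2 cells. It was 0.903 FPKM in JCb6-01 and 4.52 in JCb6-03, against 12.2 to 175 FPKM in the other JCb6 cells. In 4 of the 5 cells Pcsk2 was thus below every other cell of the prefix, with JCb5.2-7 as the exception. The differences were 2.25 for Pcsk1 and -3.01 for Pcsk2 on the log2 scale, and both passed under all 3 scalings.

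Transmitter receptor subunits decide how a neuron answers glutamate, GABA and other transmitters. Of 35 compared, 6 were higher and 0 lower, or 17.1% beside 5.02% of all genes, with a median difference of 0.50. Under the median-ratio scaling 5 of the 6 still passed, all but Gria3, and the list's median was 0.18 against -0.07 for all genes. Grik1, a kainate receptor subunit, was 35.0 FPKM in JCb5.2-1, 57.0 in JCb5.2-3, 32.3 in JCb6-01 and 33.8 in JCb6-03, and 0.0555 FPKM in JCb5.2-7. Of the other 18 cells only JCb5.2-2, with 34.4 FPKM, and 1 more cell reached 1 FPKM. Grik3, of the same family, ran partly the other way: it was 6.78 FPKM in JCb5.2-7, 6.18 in JCb6-01 and 11.7 in JCb6-03, against 1.79 and 0.114 FPKM in JCb5.2-3 and JCb5.2-1. Of the subunits of GABA-A receptors, Gabra2 was 7.79 FPKM in JCb5.2-7 and 56.4 to 110 FPKM in the remaining 4, and Gabrg1 was 18.3 to 62.6 FPKM in the 5 cells. Medians of the other JCb5.2 and JCb6 cells were 20.5 and 20.8 FPKM for Gabra2, and 19.9 and 0.953 FPKM for Gabrg1. Glra3, a glycine receptor subunit, was 1.84 to 34.0 FPKM in 4 of the 5 cells and 0.147 FPKM in JCb5.2-7.

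Voltage-gated channels set how a neuron fires. Of 34 potassium channel genes compared, 4 were higher (11.8%, beside 5.02% of all genes) and 0 lower (beside 2.05%), and 2 of the 4 passed under the median-ratio scaling. Kcnb2, a delayed rectifier subunit that passed under it, was listed at 0 in JCb5.2-1 and was 14.1 and 8.06 FPKM in JCb5.2-3 and JCb5.2-7, against a median of 0.0539 and a highest value of 11.8 FPKM in the other JCb5.2 cells. It was 18.4 FPKM in JCb6-01 and 2.88 in JCb6-03, against a median of 0.777 and a highest value of 15.5 FPKM in the other JCb6 cells, so the groups overlapped in both prefixes. Among 26 sodium, calcium and cation channel genes 3 were higher (11.5%, beside 5.02%) and 1 lower (3.85%, beside 2.05%), and under the median-ratio scaling 1 was higher and 1 lower. Cacnb3, a calcium channel subunit, was the 1 still higher: it was 27.1, 17.3 and 36.2 FPKM in the JCb5.2 cells and 34.0 and 24.9 FPKM in the JCb6 cells, against medians of 10.7 and 8.16 FPKM in the others. Cacna1h, a T-type calcium channel, was the 1 lower, with at most 2.04 FPKM in the 5 cells, against medians of 1.26 and 8.10 FPKM in the other JCb5.2 and JCb6 cells.

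Across all 11611 genes, 583 were higher in the below-threshold cells (5.02%) and 238 lower (2.05%), 821 in all (7.07%). Of the called genes 71.0% were higher. The part of the higher median depth of the 5 cells in this share was not tested. The median difference of all genes compared was 0.16. The split depended on the scaling: under median ratios 304 were higher and 284 lower, 51.7% higher, with a median of -0.07, and after rescaling each cell to 1000000 without the rule genes the numbers were 750 and 397, or 65.4% higher. Every one of the 304 was among the 583. Differences that separated the groups fully were rare. Pepd, the gene of a dipeptide-cleaving enzyme, was the only gene with every below-threshold cell above every other cell of its prefix (0.00861%): it was 81.6, 74.8 and 131 FPKM in the JCb5.2 cells and 85.2 and 91.3 FPKM in the JCb6 cells, against highest values of 73.2 and 40.2 FPKM. Under both other scalings 0 genes did so. Per2 was the only gene with every below-threshold cell below the others (0.00861%), at levels near 0. Pepd and Per2 are named because of this count, after their values were seen.

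**Figure D3:**
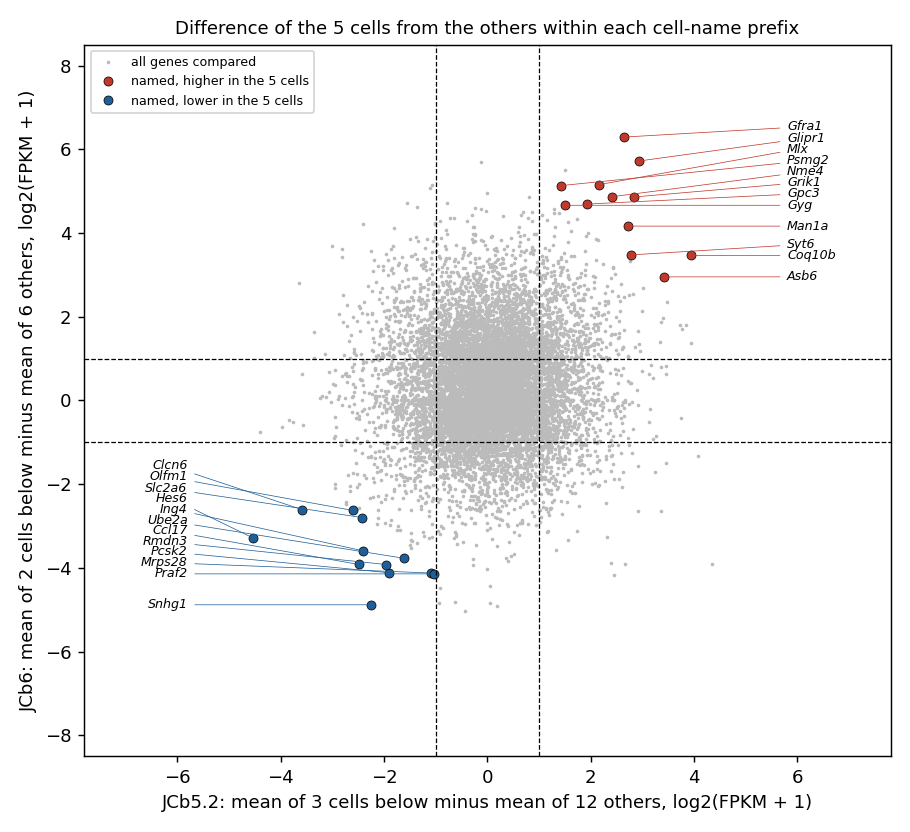
Difference of mean log2(FPKM + 1), below-threshold minus other cells, within JCb5.2 on the horizontal and within JCb6 on the vertical axis, for all 11611 genes (grey) and the 12 named higher (red) and 12 named lower (blue) genes. Dashed lines mark differences of 1 and -1; the named genes lie past them in both prefixes, with Gfra1 and Glipr1 at the top.

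Gfra1, which encodes the co-receptor for the neurotrophic factor GDNF, had the largest average difference among the named higher genes, 4.46 on the log2 scale. Gfra1 lies on chromosome 19, from 58236692 to 58454466 on the minus strand (mm10). It was 196 FPKM in JCb5.2-1, 200.2 in JCb5.2-3 and 29.5 in JCb5.2-7, against 0.861 to 85.7 FPKM with a median of 22.1 in the other JCb5.2 cells. It was 281 FPKM in JCb6-01 and 257 in JCb6-03, against 0.421 to 38.1 FPKM with a median of 1.46 in the other JCb6 cells. The 4 highest values of all 23 cells were thus those of below-threshold cells, and JCb5.2-7 lay in the middle of the others. Glipr1, a secreted protein gene of the CAP family, had 330 FPKM in JCb5.2-1, 32.7 in JCb5.2-3 and 1.28 in JCb5.2-7, against a median of 1.32 and a highest value of 96.6 FPKM. In JCb6-01 and JCb6-03 Glipr1 was 376 and 265 FPKM, against 1.37 to 72.2 FPKM in the other JCb6 cells.

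JCb5.2-7 stood apart from the remaining 4 cells in many of the 12 named higher genes, but little over all called genes. It was past the median of the other JCb5.2 cells in 82.7% of the 583 higher genes. The remaining 4 were past that of their prefix in 84.4 to 90.2%. For the 238 lower genes the shares were 87.4% in JCb5.2-7 and 84.5 to 94.5% in the remaining 4. These 5 cells also took part in calling the genes. Of the 12 named higher genes 6 were below 1 FPKM in JCb5.2-7, namely Grik1, Man1a, Gpc3, Psmg2, Syt6 and Gyg, and Glipr1 was at 1.28 FPKM. Gpc3, a cell-surface proteoglycan, was 122 and 78.1 FPKM in JCb5.2-1 and JCb5.2-3 and 33.2 and 31.1 FPKM in JCb6-01 and JCb6-03, but 0.544 FPKM in JCb5.2-7. Syt6, a synaptotagmin, was 3.98 to 49.8 FPKM in the same 4 cells and 0.253 FPKM in JCb5.2-7. Coq10b, Mlx and Asb6 were shared by all 5 cells at 15.3 to 87.6 FPKM, and Nme4 by all but JCb5.2-3, where it was listed at 0. Without JCb5.2-7 the number of genes higher was 814. In that setting 15 genes in place of 1 had every below-threshold cell above every other of its prefix, Gfra1, Grik1 and Qrfpr among them. For Qrfpr this rested, in JCb6, on a level near 0 in JCb6-03. Below the others lay 4 in place of 1, Pcsk2 among them. With any other of the 5 cells left out, 2 to 10 genes lay above.

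Of 504 list genes, 14 were at 5 FPKM or more in JCb5.2-7 and below 1 FPKM in the remaining 4 cells, against 1 to 10 for the other cells of the 5. The 14 included the receptor genes Oxtr, Npy2r at 11.8 FPKM, Mchr1 at 36.8 FPKM and Ntsr1 at 9.27 FPKM, for oxytocin, NPY and peptide YY, melanin-concentrating hormone and neurotensin. Mc3r and Grik1 were the 2 list genes below 1 FPKM in JCb5.2-7 and at 5 FPKM or more in the remaining 4. By this second count JCb5.2-7 did not stand apart: JCb5.2-3 and JCb6-01 each had 7 such genes, JCb5.2-1 had 1 and JCb6-03 had 0. JCb5.2-7 also had the lowest relative depth of the 5, 2.03 against 2.95 to 3.25, and whether depth had a part in its pattern was not tested. The thresholds for this count were set after the values were seen.

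Among the other cells JCb5.2-2, which missed the group by its 903 FPKM of Sst, had some of the same genes at high levels. It had 85.7 FPKM of Gfra1, 96.6 of Glipr1, 34.4 of Grik1, 333 of Gpc3, 17.2 of Mc3r, 314 of Gpr101 and 111 of Isl1, and it was the highest of the other JCb5.2 cells in each. Of the 12 named lower genes, all 12 were above the median of the 5 cells in it and 9 above every one of the 5. Hes6 was at 85.7 FPKM and Pcsk2 at 10.1 FPKM in it. JCb5.2-2 was among the other cells used to pick these genes, at 10 FPKM or more in all 12. Its standing in them therefore follows in part from the choice. Its values in the remaining named higher genes are not given here. JCb5.2-2 was named after its values were seen.

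**Figure D4:**
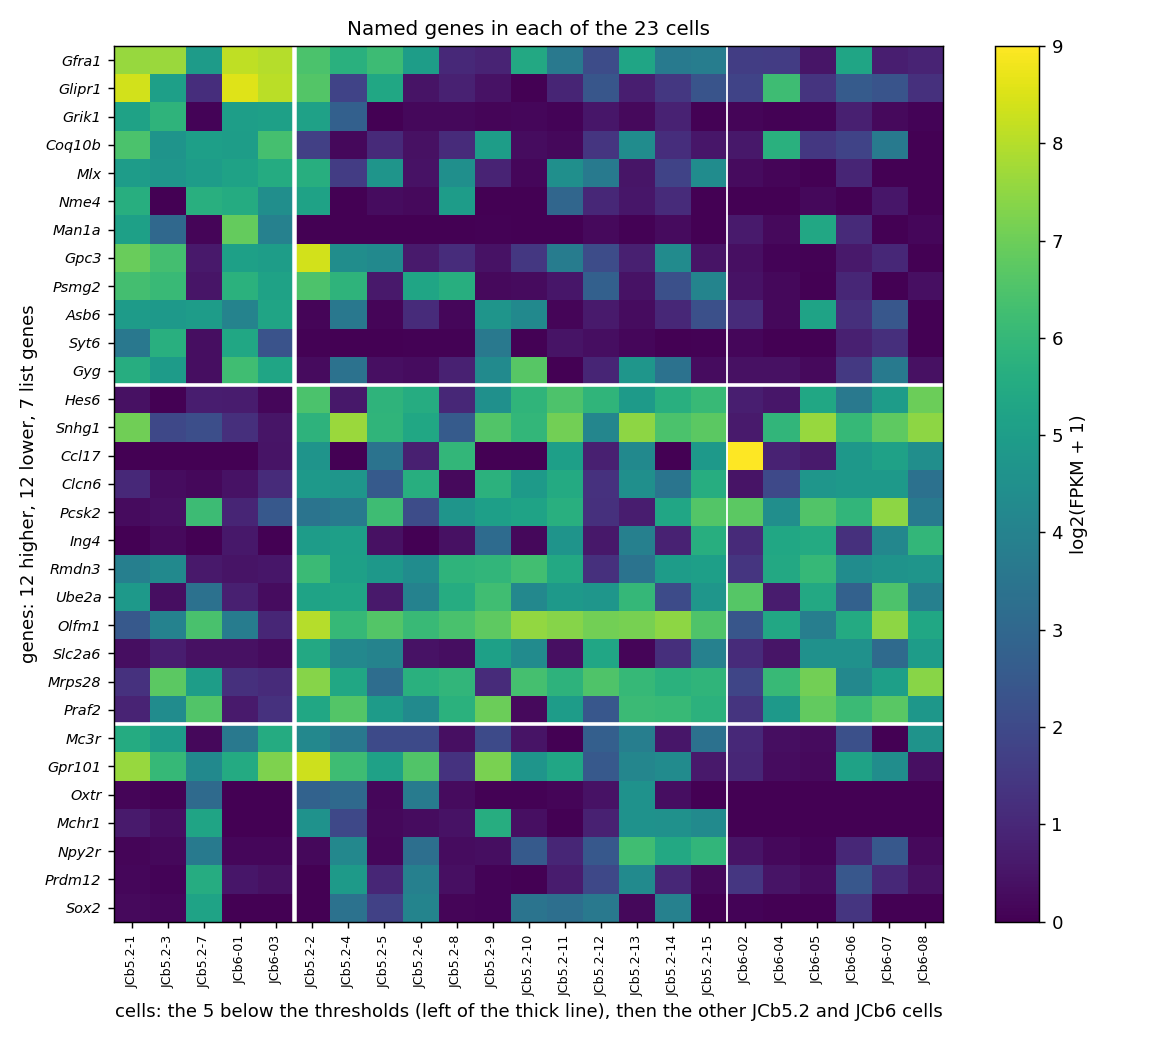
log2(FPKM + 1) of the 12 named higher genes, the 12 named lower genes and 7 list genes in each of the 23 cells; the 5 below-threshold cells are left of the thick white line, and the thin line parts the other JCb5.2 cells from the other JCb6 cells. JCb5.2-7, the third column, is dark for Grik1, Gpc3 and Mc3r and bright for Mchr1, Prdm12 and Sox2, and JCb5.2-2, the first column right of the thick line, is bright for Gfra1, Gpc3 and Gpr101.

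The named lower genes were led by Hes6, a transcriptional repressor of the Hairy and Enhancer of split family that promotes neuronal differentiation, with a difference of -3.91. Hes6 was below 0.7 FPKM in all 5 cells (0 of 5 at 1 FPKM, a description of the genes picked for being lower), against 1 FPKM or more in 14 of the other 18 cells, with medians of 53.3 FPKM in JCb5.2 and 20.9 FPKM in JCb6. The 4 other cells below 1 FPKM were JCb5.2-4, JCb5.2-8, JCb6-02 and JCb6-04. Snhg1, a host gene of small nucleolar RNAs, was 0.437 to 3.44 FPKM in 4 of the 5 cells and 133 FPKM in JCb5.2-1, against medians of 74.4 and 86.3 FPKM in the others. Clcn6, a chloride and proton exchanger of endosomes, was at most 1.14 FPKM in the 5 cells, against medians of 26.6 and 17.4 FPKM in the other JCb5.2 and JCb6 cells.

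Ccl17, a chemokine gene, was at most 0.383 FPKM in the 5 cells, and 10 of the other 18 cells reached 1 FPKM, the highest being JCb6-02 with 512 FPKM. Ing4, which takes part in histone acetylation, and Slc2a6, a sugar transporter, were below 0.7 FPKM in all 5 cells. Olfm1, a secreted neuronal glycoprotein, was present but lower: it was 4.70, 14.9 and 85.0 FPKM in the JCb5.2 cells and 12.7 and 0.960 FPKM in the JCb6 cells, against medians of 121 and 40.7 FPKM. Rmdn3, Ube2a, Mrps28 and Praf2 were below 1.5 FPKM in both JCb6 cells and mixed in the JCb5.2 cells, where the highest values were 18.5, 27.7, 105 and 93.5 FPKM.

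Immediate early genes respond to activity and to dissociation. Of 19 compared, 0 were higher (beside 5.02% of all genes) and Ier2 was lower (5.26%, beside 2.05%). Fos was 524, 400.3 and 1676 FPKM in JCb5.2-1, JCb5.2-3 and JCb5.2-7, within the 25.0 to 2469 FPKM of the other JCb5.2 cells. It was 11.2 FPKM in JCb6-01 and 364 in JCb6-03, both below the 421 to 1527 FPKM of the other JCb6 cells. JCb6-01 was also the lowest JCb6 cell in Junb, at 3.79 FPKM against 9.84 FPKM in the next.

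Some genes were high in 1 of the 5 cells alone. A gene at 50 FPKM or more and at least 4-fold above the next highest of the 23 cells was found 1, 4, 2, 2 and 2 times in JCb5.2-1, JCb5.2-3, JCb5.2-7, JCb6-01 and JCb6-03, and those with a gene name are given. JCb5.2-3 had Nog at 101 FPKM, an inhibitor of bone morphogenetic proteins, Lamp5 at 126 FPKM, a membrane protein of GABA neurons in the forebrain, and Ankfn1 at 53.5 FPKM. JCb5.2-7 had Arl6ip6 at 62.6 FPKM. JCb6-01 had Ankrd2 at 60.0 FPKM and Jmjd4 at 52.6 FPKM, and JCb6-03 had Stxbp2 at 63.0 FPKM and Deptor at 51.0 FPKM, an inhibitor of the growth kinase mTOR. Deptor was also 3.29 to 6.46 FPKM in 3 more of the 5 cells, and at most 0.984 FPKM in any other cell.

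The 5 cells did not resemble each other more than they resembled the other cells in every comparison. Likeness is the Spearman correlation across the 11611 genes between 2 cells, a description of pairs whose genes are not independent. Within JCb5.2 the median was 0.598 among the 3 below-threshold cells, 0.617 between them and the others and 0.624 among the others. Within JCb6 the single pair of below-threshold cells had 0.654, against a median of 0.616 with the others and 0.603 among the others. Across the prefixes, the 6 pairs of below-threshold cells had a median of 0.628, against 0.593 for mixed pairs and 0.570 among the others. JCb5.2-7 was the JCb5.2 cell least like both JCb5.2-1 and JCb5.2-3, which had 0.649 with each other. With all JCb5.2 cells, of both groups, JCb5.2-7 had only 0.565 to 0.613. The nearest cell to JCb5.2-1 was JCb5.2-2, with 0.659, and both JCb6 cells were nearest to JCb6-06.

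Markers of other cells that could travel with a hand-picked neuron were also read. Summed over its list, the astrocyte level was 0.172 to 27.8 FPKM in the below-threshold cells and 0.0101 to 166 FPKM in the others, with Aqp4 and Slc1a3 listed at 0 in all 5. Oligodendrocyte markers summed to 0.218 to 53.4 FPKM, against 0.322 to 63.5 FPKM in the others, with medians of 28.1 and 4.75 FPKM and with Mog at 0 in all 5. Mbp was 39.1 FPKM in JCb5.2-1, and Mag was 25.4 FPKM in JCb5.2-7. Only 4 of these markers could be compared, and 1, Cldn11, was called higher (25%, beside 5.02% of all genes). Cldn11 was 24.7 FPKM in JCb5.2-7 and 27.5 in JCb6-01. Microglial markers summed to at most 1.36 FPKM, against 9.67 FPKM, and vascular ones to at most 47.4 FPKM, against 77.8 FPKM. Tanycyte and ependymal markers summed to 0.317 to 15.8 FPKM in the below-threshold cells, against 0.367 to 259 FPKM in the others. Of 4 compared, 1, Vim, was called lower (25%, beside 2.05% of all genes). It was at most 2.41 FPKM, against up to 258 FPKM. Red cell markers, which are haemoglobin genes and Alas2, summed to 3.45 FPKM in JCb5.2-1 and 207 to 622 FPKM in the remaining 4 below-threshold cells. The median of the 5 cells was 313 FPKM, against 6.02 to 2398 FPKM with a median of 99.4 FPKM in the others. The part of these cells in the differences was not tested.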

How the data were processed

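The submitters' processing notes name CASAVA 1.8, TopHat, Cufflinks and the build mm10 for the 23 single-cell SmartSeq2 libraries; annotation, filters and the other versions are not given in the sources. Values are FPKM as the authors deposited them, in 1 table; PCR copies are counted, since there are no molecular identifiers. Of 23896 rows, 12 held spreadsheet leftovers; rows that were identical copies (286) were dropped and rows of 1 symbol summed, giving 23400 genes, 22662 of them with a locus of 300 bp or more. Absolute depth is unknown. The 5 cells, gene lists and rules were chosen with earlier results of these data known. Named genes are the rule and transmitter genes, peptides at 50 FPKM in 1 of the 5 cells, receptors at 10 FPKM in 2, the 12 largest differences each way (at 10 FPKM in 3 of the 5 cells, or 9 of the others), genes of 1 cell, and list members; a few of them are not reported here. No test was made. The difference step was tested on simulated data. Alternatives covered the pseudocount, filters, scaling, thresholds, prefixes and each cell left out. Python 3.11.15, numpy 2.4.6, pandas 2.3.3 and scipy 1.17.1 were used.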

Additional observations from a re-analysis of the deposited data

Results flagged for a closer look

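Among 37 values checked in the 5 cells, 6 had a cell whose distance to its nearest neighbour was most of the range of the 5. On the scale of log2(FPKM + 1), Oxtr was 3.12 in JCb5.2-7 and Lepr was 1.72 in JCb5.2-1, each far above the remaining 4 cells. Slc32a1 was flagged at 0.0699 in JCb5.2-3, a level near 0, so its distance from the remaining 4 cells was small. Npy1r was 1.21 in JCb5.2-7, far below the remaining 4. The FPKM sum was 594834 in JCb6-01, the highest of the 5, and the relative depth of JCb5.2-7, 1.2 times that of JCb5.2-12, was the lowest.

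Of the 33 named transmitter, peptide and receptor genes, the only ones checked for this, 3 had opposite directions in the prefixes: every below-threshold cell of one prefix lay on one side of the median of the other cells and every one of the other prefix on the opposite side; the difference between the prefixes was not tested. Gad1 differed by -2.47 in JCb5.2 and by 1.67 in JCb6 (log2, below-threshold minus other cells), Ntrk2 by -0.55 and 1.46, and Thrb, the gene of a thyroid hormone receptor, by -1.34 and 3.80.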

How the results depend on the processing

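No paired analysis was possible because all cells belong to 1 group of the labels and no test was made. The counts of genes higher (583) and lower (238) were 1116 and 739 with a pseudocount of 0.1, 53 and 12 with 10, 1410 and 699 pooled over both prefixes, 1600 and 1333 in JCb5.2 alone and 3165 and 1386 in JCb6 alone. Under median ratios 304 were higher. Lower genes numbered 397 after rescaling to 1000000, 364 with thresholds halved and 136 with thresholds doubled, which give 3 and 11 cells below. The called genes themselves changed with the thresholds. With thresholds halved, 268 of the 583 higher and 122 of the 238 lower genes were still called, and 22 and 15 changed sign. With thresholds doubled, 157 and 34 were still called, and 46 and 76 changed sign. Genes with all below-threshold cells above the others numbered 30 in JCb5.2 alone, 582 in JCb6 alone, 0 under either scaling and 29 with thresholds halved; those with all below numbered 27, 269, 2 under median ratios, and 0 pooled, with a 10 FPKM filter or with thresholds doubled. Median likeness was 0.786 without a filter, against 0.624. Leaving out 1 cell gave 511 (without JCb6-02) to 814 (JCb5.2-7) higher and 217 to 394 (JCb6-03) lower genes, 1 to 15 all above, 1 to 5 all below (JCb6-01) and likeness of 0.595 to 0.650. Lamp5 was -0.95 with thresholds halved and Olfm1 0.25 with them doubled, and the cause was not tested. With thresholds halved JCb5.2-3, which had 922 FPKM of Pomc and the highest Lamp5 of the 23 cells, counted among the other cells. Of the other values under these settings, 1467 moved by less than the spread between cells and 138 by more. Depth limits what can be said of genes near 1 FPKM.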
